A study of Neurospora crassa OR74A with 3 samples.

Results

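A set of 115 of the 9730 Neurospora crassa genes in the read tables had far fewer reads in the strain Δ3βGΔcdt2Δncu05853 than in both strains it was compared with. Members had at least 30 CPM (reads scaled to 1000000 gene reads) in both Δ3βGΔncu05853 and Δ3βG, and their CPM in Δ3βGΔcdt2Δncu05853 was at most 12.5% of the lower of those levels. Of the 4414 genes that reached 30 CPM in both strains, 2.61% met the rule. The members were chosen by their levels in these 3 libraries, so the loss of reads described here is a description and not a test. One member is cdt-2 itself, which Δ3βGΔcdt2Δncu05853 lacks, and the values over the set are those of the other 114 genes. The genes were lowered by at least 8-fold, and 19 of the 114 still had 30 CPM or more in Δ3βGΔcdt2Δncu05853. None was at 0 reads there, but the deleted gene cdt-2 also had 9 reads in that strain. For members with as few reads, a low level and a silent gene cannot be told apart.

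Neurospora crassa is a filamentous fungus that takes up cellobiose, a disaccharide released from cellulose, and splits it with β-glucosidases. When its hyphae meet air or run short of nutrients, it can form aerial hyphae and asexual spores called conidia, and hydrophobins coat the spore surface. The glyoxylate cycle and gluconeogenesis let a fungus build sugars from acetate or fatty acids, and genes of both pathways are known to be kept low when sugar is plentiful.

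Messenger RNA was sequenced from mycelia of 3 strains that were grown for 16 h with sucrose and then kept for 4 h with 2% cellobiose. Δ3βGΔcdt2Δncu05853 lacks 3 β-glucosidase genes, the transporter gene cdt2 (NCU08114, written cdt-2 in the gene table) and NCU05853, named clp1 by the study. Δ3βGΔncu05853 lacks the 3 β-glucosidase genes and NCU05853, and Δ3βG lacks only the 3 β-glucosidase genes. Each strain has 1 library, so all strains share the loss of β-glucosidases, no strain lacking cdt2 without NCU05853 is among them, and no sample was taken before the transfer. The labels do not say whether a strain is 1 clone or a culture a pool.

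The libraries held 9808610 gene reads for Δ3βGΔcdt2Δncu05853, 9465639 for Δ3βGΔncu05853 and 8586155 for Δ3βG. The labels do not name the 3 β-glucosidase genes. Those taken to be deleted, gh1-1, gh3-4 and gh3-3, had 0 to 47 reads in every library, the most being 47 for gh1-1 in Δ3βGΔncu05853 against 18 in Δ3βG. For cdt-2 there were 9 reads in Δ3βGΔcdt2Δncu05853, 2842 in Δ3βGΔncu05853 and 1907 in Δ3βG, and for clp1 there were 0 in Δ3βGΔcdt2Δncu05853, 2 in Δ3βGΔncu05853 and 4190 in Δ3βG. Reads that fell outside any gene were 5.16% of the total in Δ3βGΔcdt2Δncu05853, 8.41% in Δ3βGΔncu05853 and 9.64% in Δ3βG, and their part in the results was not tested. With 1 library per strain no spread between cultures can be given and no test was made. Ratios carry an exact 95% Clopper-Pearson interval conditional on the sum of both counts. These intervals hold the error of counting alone and no spread between cultures. PCR copies of a molecule are not independent, so even the error of counting may be understated. In RNA from whole mycelia, fewer cells of a type and less RNA per cell cannot be told apart.

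The 114 genes together took 0.503% of gene reads in Δ3βGΔcdt2Δncu05853, against 23.5% in Δ3βGΔncu05853 and 22.9% in Δ3βG. Most of that came from eas, which encodes the hydrophobin of conidia. It took 0.305% of gene reads in Δ3βGΔcdt2Δncu05853, 20.02% in Δ3βGΔncu05853 and 18.7% in Δ3βG. The other 113 genes took 0.198% in Δ3βGΔcdt2Δncu05853, 3.45% in Δ3βGΔncu05853 and 4.24% in Δ3βG. The set without eas was therefore also far smaller in the strain that lacks cdt2.

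The median member had 8.41 CPM in Δ3βGΔcdt2Δncu05853, 149 CPM in Δ3βGΔncu05853 and 186 CPM in Δ3βG. In Δ3βGΔcdt2Δncu05853 95 of the 114 were under 30 CPM, 64 were under 10 CPM and 5 were under 1 CPM. Only 3 kept 100 CPM or more in that strain. Per length, the median level was 4.27 RPKM (reads per kilobase of exon and sequencing depth) in Δ3βGΔcdt2Δncu05853, 65.9 RPKM in Δ3βGΔncu05853 and 84.1 RPKM in Δ3βG. The genes that reached 30 CPM in both of the other strains had a median of 22.3 RPKM in Δ3βGΔcdt2Δncu05853, 30.7 RPKM in Δ3βGΔncu05853 and 30.2 RPKM in Δ3βG. Members thus stood above that median in Δ3βGΔncu05853 and Δ3βG and below it in Δ3βGΔcdt2Δncu05853. Among the 500 genes of highest RPKM, 1 was a member in Δ3βGΔcdt2Δncu05853, 35 were members in Δ3βGΔncu05853 and 46 in Δ3βG.

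**Figure D1:**
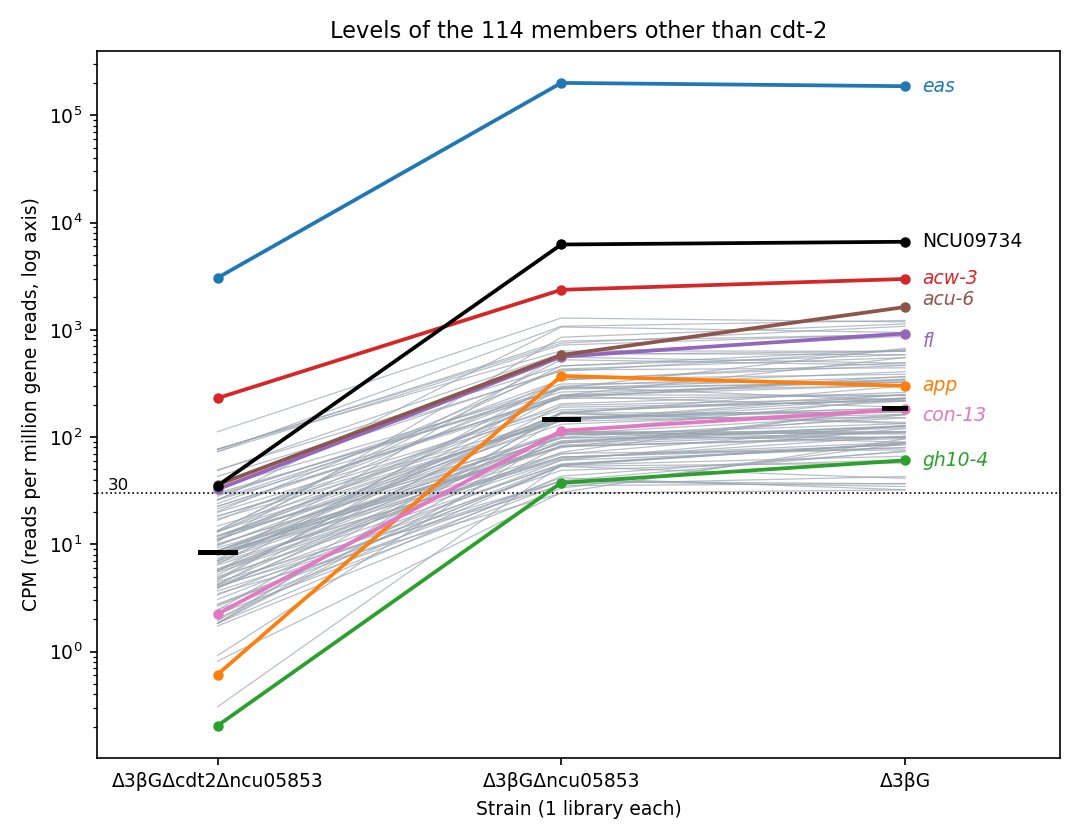
CPM on a log axis in the 3 strains, 1 library each, for the 114 members other than cdt-2. Each thin line is 1 gene, coloured lines are named genes, black bars are the medians (8.41, 149 and 186 CPM from left to right), and the dotted line marks 30 CPM; all lines lie lowest at the left, where only eas stays above 1000 CPM.

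Against Δ3βG, the level in Δ3βGΔcdt2Δncu05853 was lower by a median of 19.4-fold, with a range of 8.14-fold to 491-fold. Against Δ3βGΔncu05853 it was lower by a median of 14.9-fold, with a range of 8.15-fold to 608-fold. Both comparisons share the Δ3βGΔcdt2Δncu05853 library. On the log2 scale the median ratio to Δ3βG was -4.27 for the members, against -0.56 for all genes that reached 30 CPM in both other strains. Measured against the lower of the other libraries, 64 members were 8-fold to 16-fold lower, 26 were 16-fold to 32-fold lower, 14 were 32-fold to 64-fold lower and 10 were at least 64-fold lower. For 92 of the 114 both counting intervals lay wholly beyond 8-fold.

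The edges of the rule were crowded. Just inside the 8-fold limit stood NCU09273 at 8.14-fold, NCU06809 at 8.15-fold and NCU17053 at 8.15-fold below the lower library. Just outside were NCU05006 at 7.92-fold and NCU07320 at 7.89-fold, with NCU09062 closest of all at 7.998-fold. Near the level limit, the lower library gave 30.003 CPM for tcu-3, 30.4 CPM for NCU06505 and 32.3 CPM for NCU16875, all members. NCU06504 at 27.8 CPM, NCU09342 at 27.5 CPM and NCU04532 at 27.2 CPM fell short of it. A further 29 genes met the 8-fold part with 10 to 30 CPM in the lower library.

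Of the members with a symbol, 6 were grouped here under conidiation or the conidial surface. Of these, ada-6 and rca-1 are not on the list of conidia genes given below. The list of carbon and cellulase regulators also holds rca-1. Per length eas had the highest RPKM of all genes in both Δ3βGΔncu05853 and Δ3βG and ranked 35 in Δ3βGΔcdt2Δncu05853. Its reads numbered 29903 in Δ3βGΔcdt2Δncu05853, against 1894848 in Δ3βGΔncu05853 and 1601335 in Δ3βG, which is 61.2-fold lower than in Δ3βG (95% counting interval 60.5 to 61.9). Despite that fall in rank it stayed the most abundant member in the strain lacking cdt2, with 3049 CPM against 230 CPM for the next member, acw-3.

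The gene fl encodes a zinc cluster transcription factor needed to form conidia. It had 319 reads in Δ3βGΔcdt2Δncu05853, 5315 in Δ3βGΔncu05853 and 7927 in Δ3βG, and was 28.4-fold lower in Δ3βGΔcdt2Δncu05853 than in Δ3βG (25.4 to 31.8). Another zinc cluster gene of conidiation, ada-6, had 131 reads in Δ3βGΔcdt2Δncu05853, 4976 in Δ3βGΔncu05853 and 4011 in Δ3βG, a 34.98-fold lower level than in Δ3βG (29.4 to 42.0). Both regulators were low in the strain lacking cdt2, and the other strains differed from each other far less. The gene acon-3, needed for chains of conidia, had 85 reads in Δ3βGΔcdt2Δncu05853, 1595 in Δ3βGΔncu05853 and 2138 in Δ3βG, 28.7-fold lower than in Δ3βG (23.1 to 36.1). For rca-1, related to the Aspergillus developmental regulator FlbD, there were 118 reads in Δ3βGΔcdt2Δncu05853, 1423 in Δ3βGΔncu05853 and 1600 in Δ3βG, 15.5-fold lower than in Δ3βG (12.8 to 18.8). The conidiation gene con-13 was lower still, with 22 reads in Δ3βGΔcdt2Δncu05853, 1084 in Δ3βGΔncu05853 and 1563 in Δ3βG, an 81.2-fold lower level than in Δ3βG (53.4 to 129.9).

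Other genes linked to conidia or clock control did not all go the same way. On a list of 18 genes of conidia, aerial hyphae and clock control that averaged 10 CPM or more, 8 were at least 2-fold lower in Δ3βGΔcdt2Δncu05853 than in Δ3βG and 5 were at least 2-fold higher. Over all 6545 genes compared, 27.2% were at least 2-fold lower and 13.5% at least 2-fold higher. The list includes the members eas, fl, acon-3 and con-13, which the rule chose on the same values. Among its other genes, acon-2 had 175 reads in Δ3βGΔcdt2Δncu05853, 545 in Δ3βGΔncu05853 and 709 in Δ3βG, and its log2 ratio to Δ3βG was -2.21. The log2 ratio to Δ3βG was -2.98 for csp-2 and -2.56 for csp-1, both named for conidial separation. For con-6 it was -1.93, with 658 reads in Δ3βGΔcdt2Δncu05853, 1630 in Δ3βGΔncu05853 and 2194 in Δ3βG. The conidiation genes con-10, with a log2 ratio of 0.05, and con-8, with 0.51, were within 2-fold. In the other direction, all 5 genes at least 2-fold higher were clock-controlled ccg genes. The log2 ratio was 3.08 for ccg-16, 2.80 for ccg-14, 2.72 for ccg-9, 1.28 for ccg-6 and 1.05 for ccg-13. No con, csp or acon gene of the list was 2-fold or more higher. At 8.03 CPM in Δ3βGΔncu05853 and 8.04 CPM in Δ3βG, ccg-14 averaged 10 CPM only through Δ3βGΔcdt2Δncu05853. The 11 genes fixed as markers of conidia and aerial hyphae were all above 0 reads in every library. Of these 5 were 2-fold or more lower and 1 was 2-fold or more higher in Δ3βGΔcdt2Δncu05853 than in Δ3βG, with a median log2 ratio of 0.05 that turned to -0.24 with totals without eas. Their summed level was 12059 CPM in Δ3βGΔcdt2Δncu05853, 208521 CPM in Δ3βGΔncu05853 and 197326 CPM in Δ3βG. Without eas the sums were 9010.25 CPM in Δ3βGΔcdt2Δncu05853, 8339 CPM in Δ3βGΔncu05853 and 10824 CPM in Δ3βG, with Δ3βGΔcdt2Δncu05853 between the others. Most of each of these sums was ccg-1 alone. It had 6620 CPM in Δ3βGΔcdt2Δncu05853, 5127 CPM in Δ3βGΔncu05853 and 6259 CPM in Δ3βG. The order of the sums therefore rests largely on that gene and does not describe the other markers. Whether the share of aerial hyphae or conidia differed between the cultures was not tested.

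Of 7 measured genes of gluconeogenesis, glyoxylate cycle and acetate use, 4 were members, and the other 3 were not lower. All 7 reached 30 CPM in both other strains, where 2.61% of genes met the rule. The rule chose the 4 on the same values. The phosphoenolpyruvate carboxykinase gene acu-6, whose enzyme opens gluconeogenesis, had 352 reads in Δ3βGΔcdt2Δncu05853, 5502 in Δ3βGΔncu05853 and 13996 in Δ3βG. It was 45.4-fold lower in Δ3βGΔcdt2Δncu05853 than in Δ3βG (40.9 to 50.6) and 16.2-fold lower than in Δ3βGΔncu05853 (14.5 to 18.1). Unlike most members it was also more than 2-fold apart between the libraries of the other strains, as given further on. The fructose bisphosphatase gene fbp-1 had 109 reads in Δ3βGΔcdt2Δncu05853, 1246 in Δ3βGΔncu05853 and 1503 in Δ3βG, 15.8-fold lower than in Δ3βG (12.96 to 19.3). Of the enzymes particular to the glyoxylate cycle, isocitrate lyase (acu-3) had 116 reads in Δ3βGΔcdt2Δncu05853, 1935 in Δ3βGΔncu05853 and 2238 in Δ3βG, 22.04-fold lower than in Δ3βG (18.3 to 26.8). Malate synthase (acu-9) had 164 reads in Δ3βGΔcdt2Δncu05853, 2820 in Δ3βGΔncu05853 and 3491 in Δ3βG, 24.3-fold lower than in Δ3βG (20.8 to 28.6). Both enzymes of the cycle were thus lower by a like factor.

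The list of gluconeogenesis, glyoxylate cycle and acetate use held 7 measured genes. Those outside the set were acu-5, acu-8 and acu-15. The log2 ratio of Δ3βGΔcdt2Δncu05853 to Δ3βG was 1.41 for acu-5, 0.98 for acu-8 and 0.49 for acu-15. The gene acu-5 encodes acetyl-CoA synthetase, while acu-15 is also on the list of carbon and cellulase regulators. None of the 21 measured genes of the peroxisome and of fatty acid oxidation was a member, but 16 had a level in Δ3βGΔcdt2Δncu05853 at least 2-fold below that in Δ3βG. None was 2-fold or more above it, and the list's median log2 ratio was -1.29. Over all 6545 genes compared, 27.2% were at least 2-fold lower than in Δ3βG. All genes of this list but fox-2 are pex genes, so it says little on fatty acid oxidation. The count of genes at least 2-fold lower was 9 of 21 with TMM or DESeq2 scaling, which raise the median log2 ratio of all genes by 0.40. The share over all genes was not counted under those scalings. The gene of this list lowered most was pex20, of peroxisomal import, with 36 reads in Δ3βGΔcdt2Δncu05853, 272 in Δ3βGΔncu05853 and 329 in Δ3βG. Its level in Δ3βGΔncu05853, 28.7 CPM, was short of 30 CPM, and its log2 ratio of Δ3βGΔcdt2Δncu05853 to Δ3βGΔncu05853, -2.95, was also short of 8-fold. Of 9 measured genes of starch, sucrose, trehalose and glycogen, 1 was a member, gh13-2 of the α-amylase family. It had 24 reads in Δ3βGΔcdt2Δncu05853, 371 in Δ3βGΔncu05853 and 637 in Δ3βG. It was 30.3-fold lower in Δ3βGΔcdt2Δncu05853 than in Δ3βG (20.2 to 47.7). The glucoamylase gene gla-1, with 1477 reads in Δ3βGΔcdt2Δncu05853, 10354 in Δ3βGΔncu05853 and 9830 in Δ3βG, missed the limit at a log2 ratio of -2.93. In this list 3 genes were at least 2-fold lower than in Δ3βG and 1, inv, at least 2-fold higher. For inv the log2 ratio was 4.49. At 7.50 CPM in Δ3βGΔncu05853 and 3.03 CPM in Δ3βG, inv averaged 10 CPM only through Δ3βGΔcdt2Δncu05853. The list's median log2 ratio was -0.20, and 0.20 with TMM scaling.

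Several members act on the cell wall or belong to glycoside hydrolase families. The chitinase family gene gh18-4 had 47 reads in Δ3βGΔcdt2Δncu05853, 2313 in Δ3βGΔncu05853 and 4731 in Δ3βG, 115-fold lower than in Δ3βG (86.3 to 157). A further gene of that family, chit-1, had 252 reads in Δ3βGΔcdt2Δncu05853, 10049 in Δ3βGΔncu05853 and 8095 in Δ3βG, 36.7-fold lower than in Δ3βG (32.4 to 41.8). Of these chitinase genes only gh18-4 was also at least 2-fold lower in Δ3βGΔncu05853 than in Δ3βG. The anchored wall protein gene acw-3 had 2260 reads in Δ3βGΔcdt2Δncu05853, 22323 in Δ3βGΔncu05853 and 25559 in Δ3βG, 12.9-fold lower than in Δ3βG (12.4 to 13.5). The α-mannosidase family gene gh47-5 had 753 reads in Δ3βGΔcdt2Δncu05853, 7100 in Δ3βGΔncu05853 and 9265 in Δ3βG, 14.1-fold lower than in Δ3βG (13.05 to 15.2). Both lay near the limit, at 10.2-fold and 9.77-fold below Δ3βGΔncu05853, and dropped out of the set with TMM scaling.

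The xylanase family gene gh10-4 had the fewest reads of any member in Δ3βGΔcdt2Δncu05853, with 2 reads against 355 in Δ3βGΔncu05853 and 520 in Δ3βG. With so few reads its fold is loosely set, at 297-fold lower than in Δ3βG with an interval from 81.8 to 2459. It went against most measured genes of its list. Of 54 measured enzymes of the cell wall and of polysaccharide breakdown, 33 were at least 2-fold higher in Δ3βGΔcdt2Δncu05853 than in Δ3βG. At least 2-fold lower were 5, with 3 of these being the members gh18-4, gh47-5 and gh10-4. The median log2 ratio of the 54 was 2.41. Measured genes averaged 10 CPM or more over the 3 libraries, so some passed only through a high level in Δ3βGΔcdt2Δncu05853. Of the 54, 23 reached 30 CPM in both other strains. The filter thus favours higher genes, and the count and median are a description only. Another xylanase family gene, gh10-1, had 25848 reads in Δ3βGΔcdt2Δncu05853, 15 in Δ3βGΔncu05853 and 21 in Δ3βG. The same family thus held a gene at 2 reads and one at 25848 reads in the same library.

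**Figure D2:**
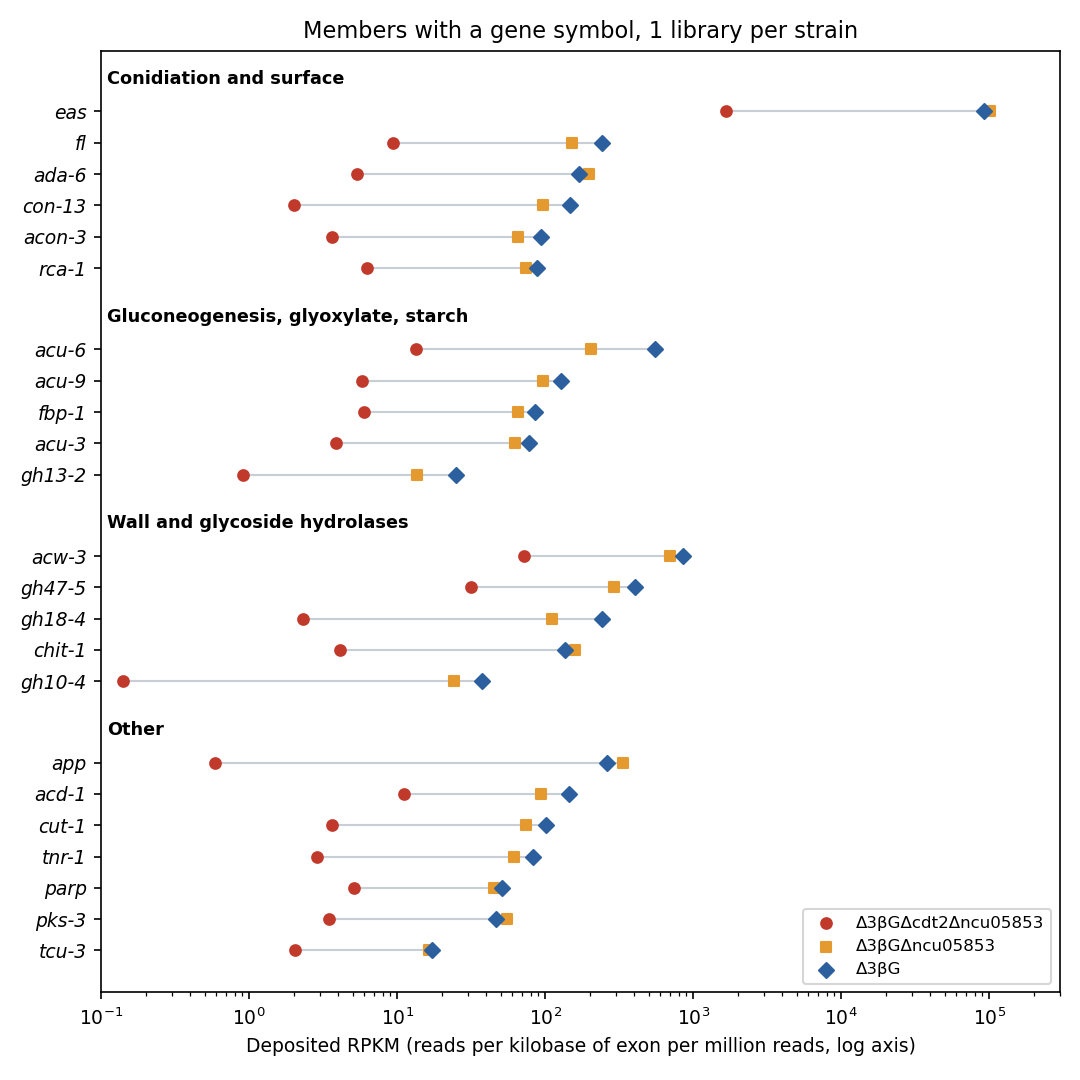
Deposited RPKM on a log axis for the 23 members with a gene symbol, cdt-2 left out. Circles are Δ3βGΔcdt2Δncu05853, squares Δ3βGΔncu05853 and diamonds Δ3βG, 1 library each; in every row the circle lies far left of the other symbols, which lie close together except for acu-6 and gh18-4.

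Other members with a symbol have varied roles or none that is sure. The largest fold of all belonged to app, with 6 reads in Δ3βGΔcdt2Δncu05853, 3518 in Δ3βGΔncu05853 and 2579 in Δ3βG, 491-fold lower than in Δ3βG (225 to 1339). The polyketide synthase gene pks-3 had 321 reads in Δ3βGΔcdt2Δncu05853, 5269 in Δ3βGΔncu05853 and 4189 in Δ3βG, 14.9-fold lower than in Δ3βG (13.3 to 16.8). The phosphatase gene cut-1, whose loss is known to cause sensitivity to osmotic stress, had 111 reads in Δ3βGΔcdt2Δncu05853, 2328 in Δ3βGΔncu05853 and 2987 in Δ3βG, 30.7-fold lower than in Δ3βG (25.4 to 37.5). All 3 were far lower in the strain without cdt2 than in both others, as the rule requires of every member. The poly(ADP-ribose) polymerase gene parp had 145 reads in Δ3βGΔcdt2Δncu05853, 1327 in Δ3βGΔncu05853 and 1396 in Δ3βG. The copper transporter gene tcu-3 had 34 reads in Δ3βGΔcdt2Δncu05853, 284 in Δ3βGΔncu05853 and 276 in Δ3βG. Both were among the least lowered members, parp by 10.998-fold and tcu-3 by 9.27-fold against Δ3βG. For tnr-1 there were 39 reads in Δ3βGΔcdt2Δncu05853, 861 in Δ3βGΔncu05853 and 1081 in Δ3βG. For acd-1 there were 254 reads in Δ3βGΔcdt2Δncu05853, 2186 in Δ3βGΔncu05853 and 3157 in Δ3βG. Against Δ3βG, tnr-1 was 31.7-fold lower and acd-1 14.2-fold lower. With TMM scaling parp, tcu-3 and acd-1 were no longer members.

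Most of the set, 91 genes, has no symbol in the gene table and is given by identifier only. Their level in Δ3βGΔcdt2Δncu05853 was lower than in Δ3βG by a median of 17.7-fold, with a range of 8.14-fold to 284-fold, against a median of 28.7-fold for the 23 members with a symbol. The most abundant of them was NCU09734, with 345 reads in Δ3βGΔcdt2Δncu05853, 59037 in Δ3βGΔncu05853 and 56797 in Δ3βG, 188-fold lower than in Δ3βG (169 to 209.7). By RPKM it ranked 3545 in Δ3βGΔcdt2Δncu05853, 7 in Δ3βGΔncu05853 and 5 in Δ3βG. It thus left the most abundant messages altogether, which eas did not. NCU05932 had 3 reads in Δ3βGΔcdt2Δncu05853, 523 in Δ3βGΔncu05853 and 747 in Δ3βG, 284-fold lower than in Δ3βG with an interval from 97.0 to 1382. NCU03861 had 18 reads in Δ3βGΔcdt2Δncu05853, 1634 in Δ3βGΔncu05853 and 1948 in Δ3βG. NCU00848 had 104 reads in Δ3βGΔcdt2Δncu05853, 8070 in Δ3βGΔncu05853 and 9726 in Δ3βG. Both were over 100-fold lower than in Δ3βG, NCU03861 by 124-fold and NCU00848 by 107-fold. NCU01402 had 9 reads in Δ3βGΔcdt2Δncu05853, 1031 in Δ3βGΔncu05853 and 770 in Δ3βG, 97.7-fold lower than in Δ3βG with an interval from 51.2 to 215.

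Among the 12 members lowered most against the lower of the other libraries were also NCU06010, NCU02969 and NCU03011. NCU06010 had 24 reads in Δ3βGΔcdt2Δncu05853, 1560 in Δ3βGΔncu05853 and 2565 in Δ3βG. NCU02969 had 19 reads in Δ3βGΔcdt2Δncu05853, 1402 in Δ3βGΔncu05853 and 1509 in Δ3βG. NCU03011 had 55 reads in Δ3βGΔcdt2Δncu05853, 3280 in Δ3βGΔncu05853 and 3306 in Δ3βG. In Δ3βGΔcdt2Δncu05853 NCU03011 was 68.7-fold lower than in Δ3βG (52.6 to 91.4), while its ratio of Δ3βGΔncu05853 to Δ3βG was 0.900 (0.857 to 0.945). Of the members with most CPM in Δ3βG, some kept far more reads in Δ3βGΔcdt2Δncu05853 than the median member. NCU03043 had 717 reads in Δ3βGΔcdt2Δncu05853, 10213 in Δ3βGΔncu05853 and 10484 in Δ3βG. NCU08709 had 716 reads in Δ3βGΔcdt2Δncu05853, 6821 in Δ3βGΔncu05853 and 7838 in Δ3βG. NCU06255 had 751 reads in Δ3βGΔcdt2Δncu05853, 7423 in Δ3βGΔncu05853 and 7749 in Δ3βG. These 3 were lower than in Δ3βG by 16.7-fold for NCU03043, 12.5-fold for NCU08709 and 11.8-fold for NCU06255. At the same end, NCU00999 kept 1099 reads in Δ3βGΔcdt2Δncu05853, against 12184 in Δ3βGΔncu05853 and 10164 in Δ3βG, and was 10.6-fold lower than in Δ3βG.

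Some members lie beside one another in the gene order of the NC12 assembly. Of the 115 members, 15 (13.04%) were direct neighbours of another member. Among the 4298 other genes at 30 CPM or more with a place in that order, 99 (2.30%) had a member as direct neighbour. No test was made of this difference. With up to 1 gene between them, 19 members fell into 9 groups, of which 8 were pairs. The spans of the members in a group did not overlap in the gene table.

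The group of 3 was NCU04862, pks-3 and ada-6, a polyketide synthase gene beside a gene of a transcription factor. NCU04862 had 369 reads in Δ3βGΔcdt2Δncu05853, 4006 in Δ3βGΔncu05853 and 3796 in Δ3βG. Genes on either side were also low. NCU04861 had 59 reads in Δ3βGΔcdt2Δncu05853, 446 in Δ3βGΔncu05853 and 491 in Δ3βG, with a log2 ratio to Δ3βG of -3.24. NCU04867 had 0 reads in Δ3βGΔcdt2Δncu05853, 68 in Δ3βGΔncu05853 and 58 in Δ3βG, at least 22.1-fold lower than in Δ3βG when 0 is set to a floor of 3 reads in that library. A little farther, the stretch ended at NCU04870, with 5608 reads in Δ3βGΔcdt2Δncu05853, 0 in Δ3βGΔncu05853 and 2 in Δ3βG.

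The pair NCU05858 and NCU05859 was lowered more than any other pair in both of its genes. NCU05858 had 69 reads in Δ3βGΔcdt2Δncu05853, 5571 in Δ3βGΔncu05853 and 5395 in Δ3βG, 89.3-fold lower than in Δ3βG (70.5 to 115). NCU05859 had 18 reads in Δ3βGΔcdt2Δncu05853, 988 in Δ3βGΔncu05853 and 1147 in Δ3βG, 72.8-fold lower than in Δ3βG (45.9 to 123). By identifier this pair is close to NCU05853, which 2 of the strains lack. Directly beside the pair, NCU05856 had a log2 ratio to Δ3βG of -0.76 and NCU05860 one of 0.51. Farther along, NCU05854 and NCU05855 went the other way. NCU05854 had 3501 reads in Δ3βGΔcdt2Δncu05853, 257 in Δ3βGΔncu05853 and 284 in Δ3βG. NCU05855 had 2866 in Δ3βGΔcdt2Δncu05853, 150 in Δ3βGΔncu05853 and 159 in Δ3βG. Any part of the deleted locus in these levels was not tested. The pair NCU16512 and NCU03451 came next. NCU16512 had 45 reads in Δ3βGΔcdt2Δncu05853, 2720 in Δ3βGΔncu05853 and 2781 in Δ3βG, 70.6-fold lower than in Δ3βG. NCU03451 had 41 reads in Δ3βGΔcdt2Δncu05853, 1870 in Δ3βGΔncu05853 and 1966 in Δ3βG, 54.8-fold lower than in Δ3βG. In the pair NCU09183 and NCU09184 the genes differed in how far they were lowered. NCU09183 had 108 reads in Δ3βGΔcdt2Δncu05853, 1417 in Δ3βGΔncu05853 and 1299 in Δ3βG, 13.7-fold lower than in Δ3βG (11.3 to 16.9). NCU09184 had 51 reads in Δ3βGΔcdt2Δncu05853, 1589 in Δ3βGΔncu05853 and 1453 in Δ3βG, 32.5-fold lower than in Δ3βG (24.6 to 43.9). A further 3 pairs were lowered less than the pair NCU16512 and NCU03451. NCU02127 was 20.7-fold and NCU02126 21.7-fold lower than in Δ3βG, NCU01790 was 20.8-fold and NCU16558 10.8-fold lower, and NCU08842 was 14.98-fold and NCU16875 11.7-fold lower. Being neighbours did not always go with a like level. Between eas and the member NCU08455 lies NCU08456, with 101 reads in Δ3βGΔcdt2Δncu05853, 114 in Δ3βGΔncu05853 and 83 in Δ3βG. Of 143 neighbours of members that were no members themselves but averaged 10 CPM or more, 55 (38.5%) were at least 2-fold lower in Δ3βGΔcdt2Δncu05853 than in Δ3βG and 13 were at least 2-fold higher. The share at least 2-fold lower over all genes compared was 27.2%, as given above.

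**Figure D3:**
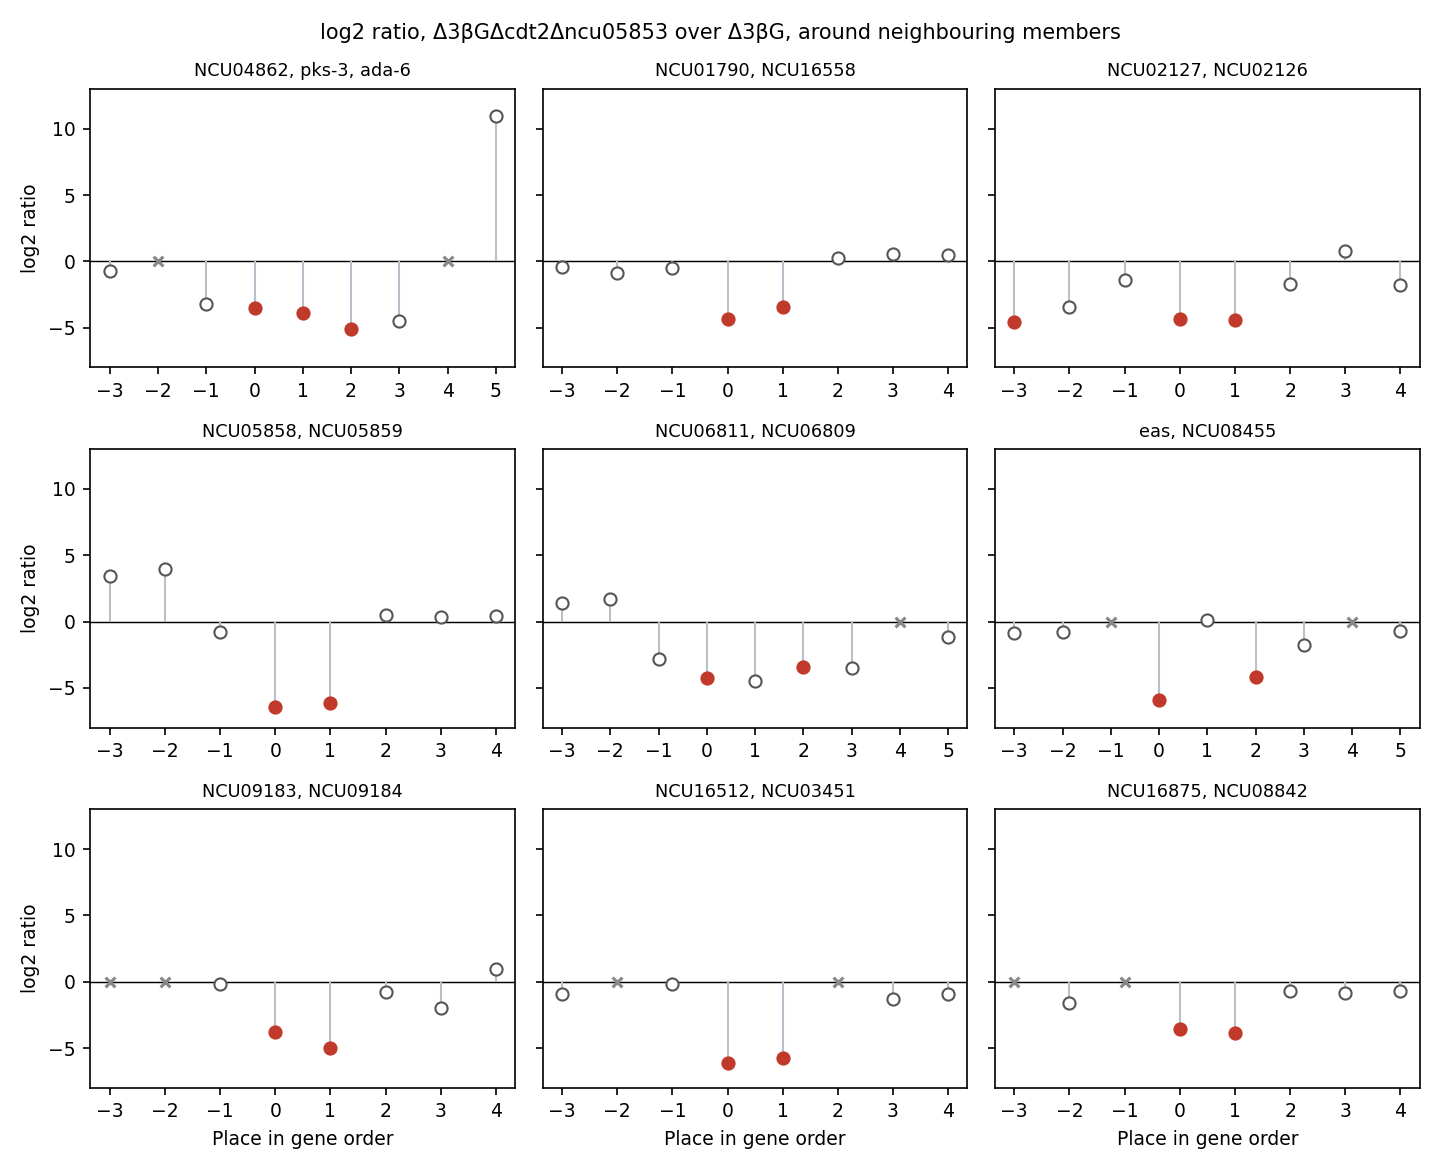
The log2 ratio of CPM, Δ3βGΔcdt2Δncu05853 over Δ3βG, for the 9 groups of neighbouring members and 3 genes on each side, by place in the gene order of NC12 (0 is the first member). Filled points are members, open points other genes, and crosses genes with 3 reads or fewer in both libraries; a gene with 0 reads in 1 library is drawn at the floor of 3 reads, and open points beside the members range from below -3 to above 10.

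Few members belonged to the remaining lists. Of 9 carbon and cellulase regulators, rca-1 was the single member, while in Δ3βGΔcdt2Δncu05853 4 stood 2-fold or more above Δ3βG and 2 as far below it. One of those higher was clr-2, a regulator of cellulase genes, with 8004 reads in Δ3βGΔcdt2Δncu05853, 57 in Δ3βGΔncu05853 and 42 in Δ3βG. At 6.02 CPM in Δ3βGΔncu05853 and 4.89 CPM in Δ3βG, clr-2 averaged 10 CPM only through Δ3βGΔcdt2Δncu05853. The lists of clock, light and carotenoid genes, nitrogen use, sulphur use, phosphate use, quinate use, and alternative respiration held no member. Among their genes, al-3 of carotenoid synthesis had a log2 ratio to Δ3βG of -3.09, with 1876 reads in Δ3βGΔcdt2Δncu05853, 11441 in Δ3βGΔncu05853 and 13943 in Δ3βG. The glutamate dehydrogenase gene gdh-1 had a log2 ratio of -3.19, with 3739 reads in Δ3βGΔcdt2Δncu05853, 22409 in Δ3βGΔncu05853 and 29822 in Δ3βG. Both were over 8-fold lower than in Δ3βG but not than in Δ3βGΔncu05853, and so were no members. At least 8-fold lower than in Δ3βG were 2.8% of all genes compared. Of 11 measured clock, light and carotenoid genes, 2 were at least 2-fold lower than in Δ3βG and 1, cry, at least 2-fold higher. Of 8 measured genes of nitrogen use, 1 was at least 2-fold lower and 2, am and nit-6, at least 2-fold higher. The median log2 ratio was 0.15 for the first list and -0.02 for the second, so neither al-3 nor gdh-1 stands for its list. Over all genes compared, 27.2% were at least 2-fold lower and 13.5% at least 2-fold higher.

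**Figure D4:**
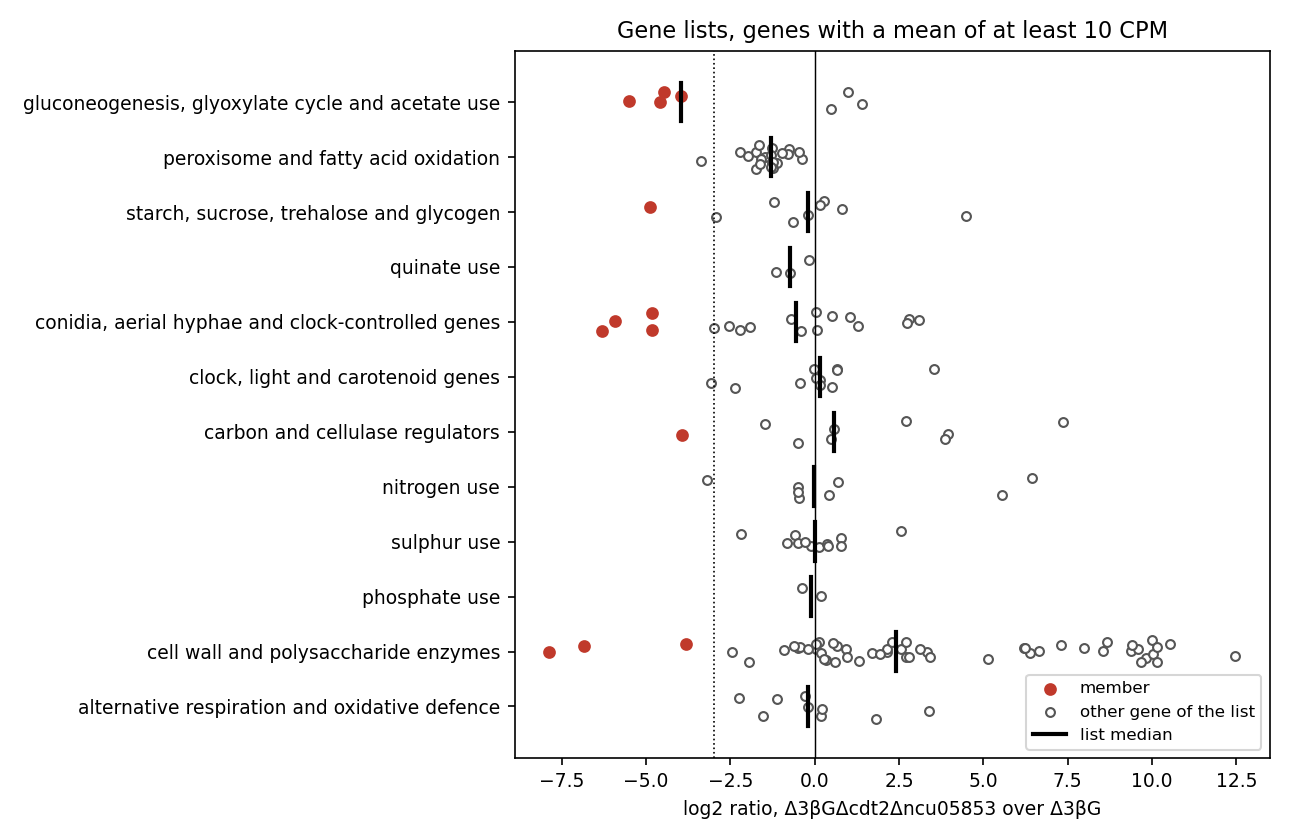
The log2 ratio of CPM, Δ3βGΔcdt2Δncu05853 over Δ3βG, for genes of 12 lists with a mean of at least 10 CPM. Filled points are members, open points other genes of a list, black bars list medians, and the dotted line marks 8-fold lower; the peroxisome list lies wholly below 0 and holds no member, while the polysaccharide list spans members at the left and genes far higher in Δ3βGΔcdt2Δncu05853 at the right.

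The rule put no direct limit on the ratio of Δ3βGΔncu05853 to Δ3βG, but it used the levels of both libraries. Its 8-fold part was taken from the lower of them, so this ratio is not free of the rule. The comparison that follows is a description. Over the 114 members the ratio of Δ3βGΔncu05853 to Δ3βG had a median of 0.794 and ran from 0.316 to 1.34. Over all 4413 genes that reached 30 CPM in both, the median ratio was 0.980. Of the members 8 (7.02%) were at least 2-fold lower in Δ3βGΔncu05853 than in Δ3βG, against 0.408% of those 4413 genes. None of the members was at least 2-fold higher, against 0.181% of the 4413. Most members were thus within 2-fold between these strains, and their median lay below that of the other genes.

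The lowest ratio belonged to NCU06505, with 8 reads in Δ3βGΔcdt2Δncu05853, 288 in Δ3βGΔncu05853 and 827 in Δ3βG, a ratio of Δ3βGΔncu05853 to Δ3βG of 0.316 (0.275 to 0.362). Next came acu-6 at 0.357 (0.346 to 0.368), then NCU09049 at 0.371, NCU03918 at 0.385 and NCU06597 at 0.423. For acu-6 the levels were 35.9 CPM in Δ3βGΔcdt2Δncu05853, 581 CPM in Δ3βGΔncu05853 and 1630.1 CPM in Δ3βG. The 3 libraries thus lay apart beyond the error of counting. The chitinase family gene gh18-4, with a ratio of 0.443 (0.422 to 0.466), was of the same kind. At the other end, NCU09210 had 64 reads in Δ3βGΔcdt2Δncu05853, 2793 in Δ3βGΔncu05853 and 1886 in Δ3βG, a ratio of 1.34 (1.27 to 1.42). NCU16875 and its neighbour NCU08842 each had a ratio of 1.29, NCU01063 had 1.28 and NCU00365 had 1.24. Among the conidiation genes the ratio of Δ3βGΔncu05853 to Δ3βG ran from 0.608 for fl to 1.13 for ada-6, and among the 5 genes of gluconeogenesis, glyoxylate cycle and starch from 0.357 for acu-6 to 0.784 for acu-3.

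**Figure D5:**
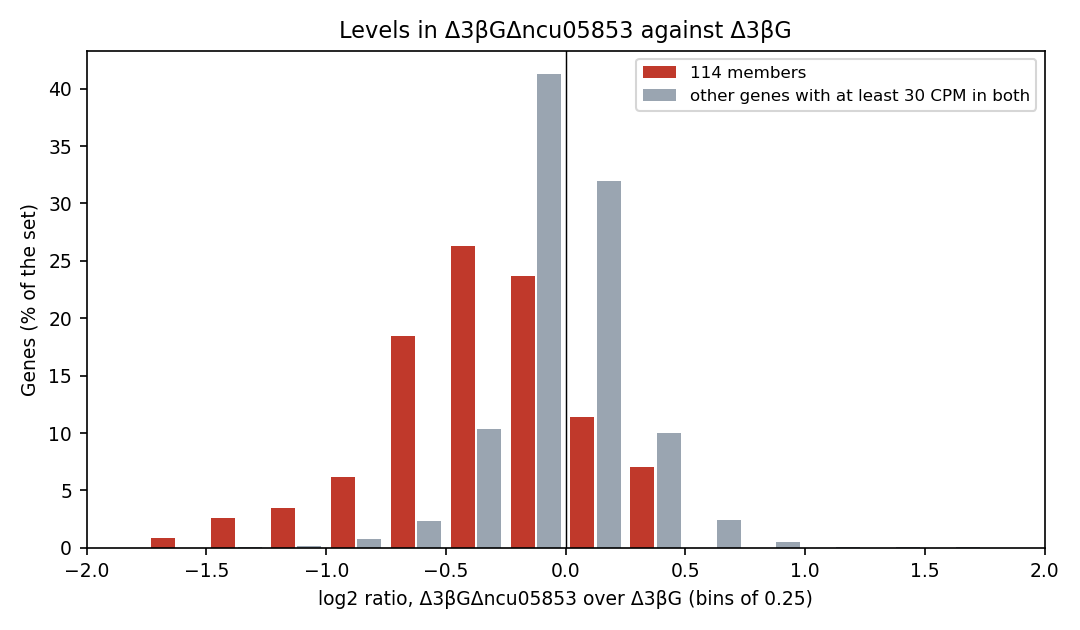
Distribution of the log2 ratio of Δ3βGΔncu05853 to Δ3βG in bins of 0.25, as a percent of each set, for the 114 members and the 4299 other genes with at least 30 CPM in both strains. 1 of the other genes lies beyond the right edge; the members' bars reach farther left, with 26.3% of members in the bin just below -0.25.

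The median exon length of members was 1976 bases (quartiles 1411 to 2607), against 2579 bases (1890 to 3539) for the 4299 other genes at 30 CPM or more in both Δ3βGΔncu05853 and Δ3βG. A symbol was listed for 20.9% of members and for 17.8% of those other genes. No test was made of either difference.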

How the data were processed

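The deposited files hold read counts per gene as whole numbers, made by the authors with TopHat and HTSeq, per the submitters' processing notes. Versions, settings, genome build, annotation and strand use were not given in the sources used here, so antisense or near-identical genes may share reads. The deposited RPKM values were scaled by the authors to all reads in the file, and the deposited exon lengths count bases. RPKM served only to compare levels between genes. Symbols and gene order came from a RefSeq table of assembly NC12, which matched 9729 of 9730 identifiers.

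CPM used the sum of gene reads (91.5%, 85.8% and 83.2% of all reads in Δ3βGΔcdt2Δncu05853, Δ3βGΔncu05853 and Δ3βG). Log2 ratios carry a prior of 0.5 counts; folds carry none. Lists, and the count of neighbours that are no members, used the 6545 genes averaging 10 CPM or more, without the 5 deleted genes. That average is over the 3 libraries, so a gene high in 1 strain alone could pass. The shares with a member as neighbour used genes at 30 CPM or more in both Δ3βGΔncu05853 and Δ3βG, cdt-2 included, and the groups of neighbours print genes of any level. Scaling with edgeR 4.0.16 and DESeq2 1.42.0 factors (R 4.3.3) was an alternative; edgeR's test needs replicates and was not run. The members, lists and rule for named genes were chosen with earlier results of these data known. Named were members with a symbol, the 12 lowest ratios, the 12 with most CPM in Δ3βG, genes at the edges of the rule, neighbours, the 5 members farthest apart each way between Δ3βGΔncu05853 and Δ3βG, and list members. Other genes were named after their values were seen.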

Additional observations from a re-analysis of the deposited data

How the results depend on the processing

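The size of the set, 115 with cdt-2, depended on the scaling and limits. It was 79 with TMM factors, 80 with DESeq2 size factors, 103 with all reads in the file as library size, 126 without the 50 genes with most counts and 157 without eas in the totals. A limit of 25% of the lower library in place of 12.5% gave 273 genes and one of 6.25% gave 51, while a minimum of 10 CPM gave 144 and one of 60 CPM gave 96. Under all 5 scalings 78 of the 115 remained members, among them 19 of the 24 with a symbol; acd-1, acw-3, gh47-5, tcu-3 and parp did not. The median log2 ratio of members in Δ3βGΔcdt2Δncu05853 against Δ3βG was -3.86 with TMM and -3.87 with DESeq2 factors, and against Δ3βGΔncu05853 it was -3.50 with either. Both scalings raise the median of all genes by 0.40, and totals without eas lower it by 0.29. The count of peroxisome and fatty acid oxidation genes at least 2-fold lower was 9 with TMM and 9 with DESeq2 factors, a check added after seeing the data. The median of the conidia markers turned from 0.05 to -0.24 with totals without eas. The log2 ratios to Δ3βG of the 58 named members stayed between -9.10 and -2.61 under the 5 scalings. No paired analysis was possible because each strain has 1 library and no test was made. For the same reason no replicate could be left out, and members with 2 to 10 reads in Δ3βGΔcdt2Δncu05853 have folds known only within wide intervals.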
